A study of Homo sapiens with 28 samples.

Results

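THP1 and NOMO1 cells grown with vehicle alone were compared by gene expression. Both are established human cell lines of monocytic acute myeloid leukaemia (AML) that carry the same gene fusion, KMT2A-MLLT3. The comparison used 4 of the 28 arrays of the series, the 2 THP1 and the 2 NOMO1 arrays whose labels name DMSO, and no measured value entered that choice. In the series, 7 AML lines (THP1, NOMO1, GDM1, MOLM13, SKM1, SKNO1 and SHI1) grew for 96 hours (4 days) in the presence of either 1 µM GSK3484862, which inhibits the DNA methyltransferase DNMT1, or 0.1% DMSO, in biological duplicate. Untreated here means 0.1% DMSO for 96 hours in both lines. Where treated cells are mentioned, they are the 2 THP1 and the 2 NOMO1 arrays of cells given 1 µM GSK3484862 for the same time. Duplicates of a line show the spread between cultures of that line, so the p-values concern these cultures and not THP1-type or NOMO1-type leukaemias in general.

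The RNA was hybridised to Affymetrix U133 Plus 2.0 arrays, and the values are log2 signals per probe set. A step of 1 is a factor of 2. The lowest signal, 2.13, was shared by all arrays and is called the floor, and values there have no order. For each of 11676 genes, the probe set that was brightest on average across the 28 arrays stood for the gene. A gene was called when its adjusted p was under 0.05 (limma, Benjamini-Hochberg adjustment over 11676 genes, 2 arrays a group), and the 2-fold calls below also had a difference of at least 1. Differences are THP1 minus NOMO1 on the log2 scale, with the standard error (SE) after the ± sign, so a positive value is higher in THP1. The range of a probe set ends near its own background, so the largest differences are limited by how dark the darker line could be. The array medians lay between 8.33 and 8.51, and the median of all values was 8.43.

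The KMT2A-MLLT3 fusion joins the DNA-binding end of the histone methyltransferase KMT2A to MLLT3, a protein of the transcription elongation machinery, and keeps genes of the HOXA cluster and their partner MEIS1 active. Leukaemias with this fusion are often of monocytic type, that is, they express part of the programme of blood monocytes, such as pattern recognition receptors, cytokines, Fc receptors, antigen presentation molecules and granule proteins. Lines of this type can be arrested at different points between the granulocyte-monocyte progenitor and the monocyte.

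The labelled cell type was checked against 25 monocytic markers, of which 21 were measured. In THP1 16 of them had a mean above the median of all values, and in NOMO1 17 did. Lysozyme (LYZ) averaged 14.08 in THP1 and 15.25 in NOMO1. The granule protein gene RNASE2, which is not one of the 25 markers, averaged 14.58 in THP1 and 14.61 in NOMO1. Most of the measured markers were thus above that median in both lines, which alone does not set them apart from other genes. Between the lines 15 of the 21 markers differed at 2-fold or more, 4 higher and 11 lower in THP1.

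Between the lines 8072 of 11676 genes were called (69.1%), 4111 higher and 3961 lower in THP1. At 2-fold or more 3664 genes were called (31.4%), 1802 higher (15.4%) and 1862 lower (15.9%), and these shares are the background for every count below. Differences beyond 16-fold were called for 534 genes (4.57%), 272 higher and 262 lower. The arrays of the lines did not overlap for 83.9% of genes, so a lack of overlap is itself the common case. The median difference over all genes was 0.00, its median size 0.59 and the median SE 0.13. Among the 21 pairs that the 7 lines form in DMSO, THP1 with NOMO1 came 14th when pairs were ordered from the fewest 2-fold genes (2746, MOLM13 with SHI1) to the most (4189, GDM1 with THP1). Thus 13 pairs of lines differed at fewer genes than THP1 and NOMO1. Among them were MOLM13 with NOMO1 (3013 genes, 4th) and MOLM13 with THP1 (3130 genes, 6th). The fusions of the other lines are not given here, so these pairs may share a fusion too. Whether a shared fusion bears on this order was not tested. Across probe sets the duplicates correlated at 0.996 in THP1 and 0.994 in NOMO1, and single THP1 with single NOMO1 DMSO arrays at 0.877 to 0.885. Across genes the means of the 2 lines correlated at 0.852. Such values describe the arrays and are not a test. These are bulk samples, in which fewer cells of a type and less RNA per cell cannot be told apart.

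The genes farthest apart are shown first. Among those higher in THP1 were homeobox and other developmental transcription factors. SHOX2, a homeobox factor of limb and heart development, had signals of 12.60 and 12.69 in THP1, against 2.31 and 2.71 in NOMO1 (difference 10.13 ± 0.32, adjusted p = 3.1e-14). FOXP2, a forkhead factor known from speech circuits, had 12.29 and 12.26 in THP1, against 2.75 and 2.76 in NOMO1 (9.52 ± 0.13). TWIST1, a basic helix-loop-helix factor of mesenchyme, had 10.83 and 10.90 in THP1, against 2.19 and 2.29 in NOMO1 (8.63 ± 0.09), and no other line averaged above 5.25. ZIC2 (8.58 ± 0.20) and ALX1 (8.35 ± 0.10), a zinc finger and a homeobox factor of the embryo, followed, with ALX1 at the floor in both NOMO1 arrays. All 5 factors were thus bright in THP1 and at or near background in NOMO1. THP1 also exceeded NOMO1 in metabolic genes, in ASS1, which makes argininosuccinate on the way to arginine (9.76 ± 0.29), in HSD11B1, which regenerates active cortisol (9.55 ± 0.12), and in ALDH1L2, a mitochondrial folate enzyme (8.77 ± 0.39, both NOMO1 arrays at the floor). The 3 probe sets of ALDH1L2 ranged from 0.36 to 8.77. SERPINF1, which encodes the secreted factor PEDF, had 12.88 and 12.85 in THP1, against 3.83 and 3.83 in NOMO1, while the 5 other lines averaged between 3.84 and 4.38. The others at this end were CAAP1, LIN7A, CCDC144NL-AS1, PPIC, EPB41L2, TRHDE, PRAME, ARMCX1, THSD7A and the retrotransposon-repressing zinc finger gene ZNF91, with differences from 8.51 to 9.37. For PPIC, the cyclophilin C gene, the NOMO1 duplicates lay apart, at 5.94 and 3.44, and both lay far under the THP1 signals of 13.29 and 13.51.

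The genes lowest in THP1 included granule proteins, receptors and matrix genes. CLC, the galectin of Charcot-Leyden crystals made by eosinophils and basophils, had signals of 3.01 and 2.39 in THP1, against 12.93 and 13.39 in NOMO1 (difference -10.46 ± 0.32, adjusted p = 2.21e-14). PRG2, the major basic protein of eosinophil granules, had 5.14 and 3.43 in THP1, against 12.68 and 13.30 in NOMO1 (-8.70 ± 0.43). BCL2A1, an anti-apoptotic relative of BCL2, had 2.58 and 2.94 in THP1, against 12.51 and 12.56 in NOMO1 (-9.78 ± 0.31). Genes at both ends were named only if the arrays of the lines did not overlap. The THP1 duplicates of PRG2 lay apart. FCN1, the secreted lectin ficolin of monocytes, was at 2.14 in both THP1 arrays, against 11.23 and 11.75 in NOMO1 (-9.34 ± 0.19), and TLR8, an endosomal RNA sensor, was at 2.16 in both THP1 arrays, against 11.26 and 11.11 in NOMO1 (-9.02 ± 0.29). RETN, which encodes resistin, differed by -8.75 ± 0.27, SUCNR1, the succinate receptor, by -9.68 ± 0.44, and FCMR, the IgM Fc receptor, by -8.69 ± 0.53. FN1, fibronectin, had 2.73 and 2.51 in THP1, against 11.81 and 11.88 in NOMO1, and GJB2, a gap junction connexin, was at 2.13 in both THP1 arrays, against 11.72 and 11.61 in NOMO1. In the 5 other lines FN1 averaged at most 4.84 and GJB2 at most 3.59, so among the 7 lines these signals were bright in NOMO1 only. At the floor in both THP1 arrays were HOPX, a homeodomain protein without DNA binding (-10.69 ± 0.20), SPINK2, a protease inhibitor of leukaemic stem cell signatures (-10.32 ± 0.14), the homeobox gene DLX6 (-8.90 ± 0.44) and the platelet chemokine gene PPBP (-8.51 ± 0.19). ANKRD22, IL18RAP, FUNDC1 and CLEC5A completed this end, between -9.75 and -8.76.

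**Figure D1:**
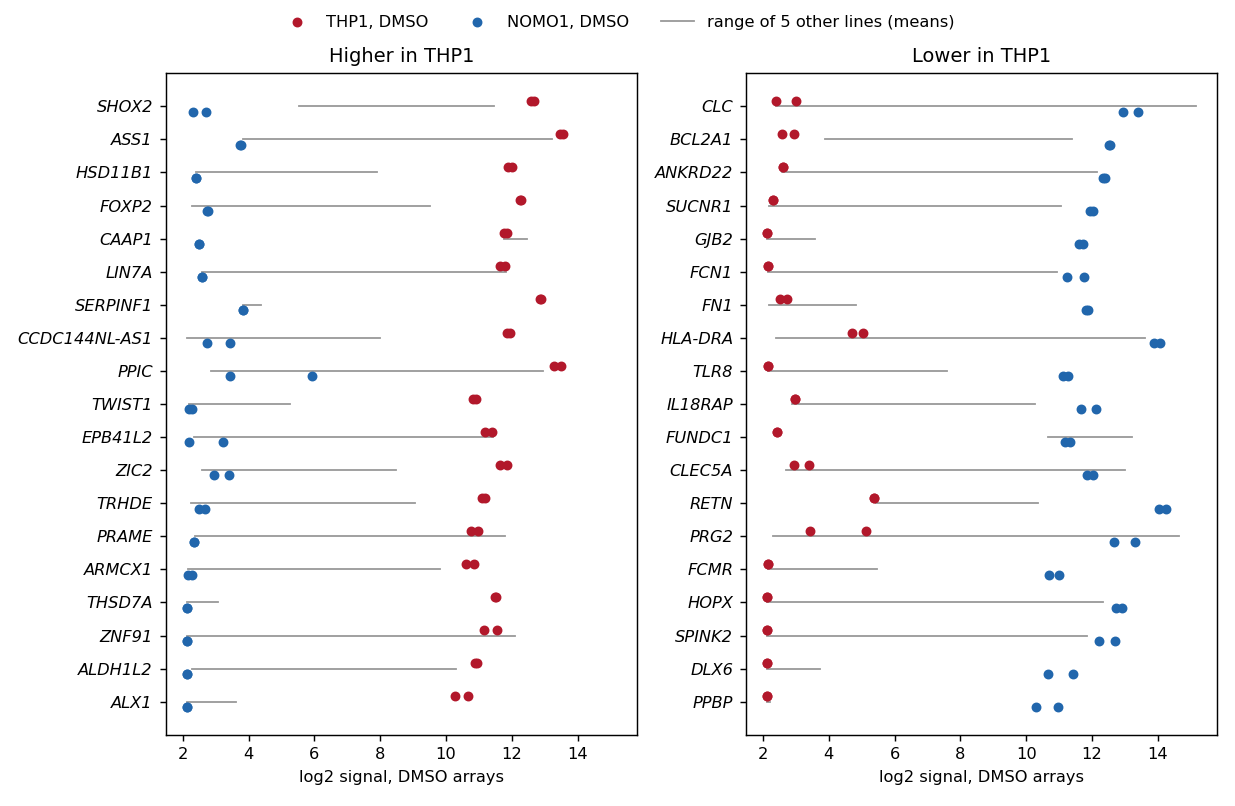
Log2 signal (x axis) in each DMSO array of THP1 and NOMO1 for the 19 genes named at each end, with the range of the 5 other lines' DMSO means as a grey line. In SHOX2, FOXP2 and TWIST1 the THP1 points lie right of that line's end, and in FN1, GJB2 and DLX6 the NOMO1 points do.

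The promoters of 4 genes, 2 from the DMSO comparison and 2 from the response to the drug, are shown because the drug of the series acts on DNA methylation, which is placed on the CG dinucleotide. MAGEB2 and OLFML3 were dark in NOMO1 with DMSO and brighter with GSK3484862, while SHOX2 in NOMO1 and MEIS1 in THP1 were dark under both conditions. The 250 bases before the RefSeq start (GRCh38.p14) are given 5′ to 3′ on the gene's strand, with each CG in capitals.
MAGEB2 (chrX:30215313-30215562, plus strand): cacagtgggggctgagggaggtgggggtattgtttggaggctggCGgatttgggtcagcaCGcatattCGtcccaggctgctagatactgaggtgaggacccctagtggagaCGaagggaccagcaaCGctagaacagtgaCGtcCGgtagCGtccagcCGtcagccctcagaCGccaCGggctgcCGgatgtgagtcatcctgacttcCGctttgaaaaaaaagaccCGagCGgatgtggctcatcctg
OLFML3 (chr1:113979224-113979473, plus strand): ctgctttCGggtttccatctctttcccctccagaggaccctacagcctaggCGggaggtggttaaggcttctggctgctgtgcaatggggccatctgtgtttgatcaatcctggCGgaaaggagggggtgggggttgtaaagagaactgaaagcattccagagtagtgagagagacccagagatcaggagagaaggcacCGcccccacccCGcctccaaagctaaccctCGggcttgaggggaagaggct
SHOX2 (chr3:158106164-158106413, minus strand): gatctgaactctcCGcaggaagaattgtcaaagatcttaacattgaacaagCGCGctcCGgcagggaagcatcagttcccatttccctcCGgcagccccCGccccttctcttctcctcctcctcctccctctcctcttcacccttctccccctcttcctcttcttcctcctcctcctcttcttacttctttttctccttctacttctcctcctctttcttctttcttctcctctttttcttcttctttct
MEIS1 (chr2:66434875-66435124, plus strand): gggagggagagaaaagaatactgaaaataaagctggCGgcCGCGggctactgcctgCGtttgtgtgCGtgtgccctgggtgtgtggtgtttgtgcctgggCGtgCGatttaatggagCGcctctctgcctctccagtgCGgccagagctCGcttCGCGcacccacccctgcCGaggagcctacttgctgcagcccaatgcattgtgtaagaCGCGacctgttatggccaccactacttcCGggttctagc
CG, which reads the same on both strands, occurred 15 times in the MAGEB2 stretch, 6 times in OLFML3, 6 times in SHOX2 and 16 times in MEIS1. Over 35116 promoters of the same length the median was 11, 42.9% held at least 15, 61.9% at least 6 and 41% at least 16. The letters say nothing of whether a site was methylated, which the arrays did not measure.

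Fusion and target genes came next. KMT2A was brighter in THP1, with 8.80 and 8.76, against 7.08 and 7.23 in NOMO1 (1.63 ± 0.12, adjusted p = 2.26e-09), although only 6 of 8 KMT2A probe sets were on that side and the lowest gave -0.46. MLLT3 had 7.03 and 7.34 in THP1, against 6.94 and 6.58 in NOMO1, and did not pass (0.43 ± 0.28, adjusted p = 0.18, probe sets from -0.01 to 0.55). An array probe set cannot tell the fusion transcript from the normal ones. Of 14 measured fusion and cofactor genes 3 were higher at 2-fold and 0 lower (1 lower without THP1_DMSO replicate 2 or without NOMO1_DMSO replicate 2), the others higher being PSIP1, the chromatin tether of the KMT2A complex (1.71 ± 0.08), and AFF1, a scaffold of the elongation complex (1.09 ± 0.06). MEIS1, the cofactor of HOXA proteins, was at the floor in both THP1 arrays, against 10.24 and 10.33 in NOMO1 (-8.16 ± 0.14, adjusted p = 1.09e-17), and its other probe set moved the same way. In the 5 other lines MEIS1 averaged 10.84 in SHI1, 10.71 in GDM1, 10.55 in MOLM13, 2.76 in SKM1 and 2.45 in SKNO1. Of 20 measured HOX and fusion target genes 5 were higher and 4 lower at 2-fold, so the list as a whole had no common direction (median 0.13). PBX3, the other cofactor of HOXA proteins, was higher in THP1 (12.27 against 10.84 in NOMO1), as were ZEB2, a repressor of epithelial genes (2.09 ± 0.31), ADCY9, an adenylyl cyclase (1.73 ± 0.14), and CPEB2, an RNA-binding regulator of translation (2.50 ± 0.22). CDK6 and MEF2C, known targets of the fusion, were lower, by -1.15 and -1.14. HOXA9 was not analysed here.

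Of 35 myeloid transcription factors 7 were higher and 6 lower, near the 15.4% and 15.9% of all genes, and with a filter on dim genes 4 of 30 were higher. CEBPA, which drives the granulocyte-monocyte progenitor, had 13.78 and 13.71 in THP1, against 11.35 and 11.39 in NOMO1 (2.37 ± 0.08, adjusted p = 1.49e-13). IRF8, the factor of monocyte and dendritic cell fate, averaged 13.61 in THP1 and 11.37 in NOMO1, and BATF3, which works in dendritic cells, differed by 2.81 ± 0.27. CEBPE, the factor of late granulocytes, went the other way, with 6.71 and 6.95 in THP1, against 10.93 and 10.89 in NOMO1 (-4.07 ± 0.22, adjusted p = 3.73e-11). HHEX (-2.55 ± 0.11), a homeobox repressor of progenitors on chromosome 10, and the stimulus-induced genes FOS (-1.68) and JUNB (-1.21) were lower as well. The master regulator SPI1 differed by -0.62, short of 2-fold. MYC had 12.96 and 12.81 in THP1, against 12.12 and 12.37 in NOMO1 (0.64 ± 0.10), and both lines lay below the 5 others, which averaged 13.26 or more.

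Monocyte markers differed in both directions. CD14, the co-receptor for endotoxin, had 7.78 and 7.21 in THP1, against 4.34 and 4.31 in NOMO1 (3.17 ± 0.42, adjusted p = 3.12e-06). CSF1R, the receptor for macrophage colony-stimulating factor, had 9.54 and 9.55 in THP1, against 7.78 and 7.69 in NOMO1 (1.81 ± 0.28). CD4, which human monocytes also carry, had 9.51 and 9.36 in THP1, against 5.16 and 4.32 in NOMO1 (4.70 ± 0.41). The chemokine receptors CCR2 (2.65) and CX3CR1 (1.93) and the Fc receptor FCGR2A (1.61) were the other members higher in THP1. In all, 6 of the 35 measured members were 2-fold higher in THP1 and 17 lower. S100A12, an alarmin of granulocytes and classical monocytes, had 6.88 and 4.79 in THP1, against 13.47 and 13.78 in NOMO1 (-7.79 ± 0.55). CYBB, the catalytic subunit of the phagocyte oxidase, had 7.95 and 7.54 in THP1, against 13.47 and 13.58 in NOMO1 (-5.77 ± 0.42). Its 3 probe sets ranged from -7.48 to -0.73. FCGR2B, the inhibitory Fc receptor, differed by -5.69 ± 0.46 and the complement receptor gene C5AR1 by -5.16. S100A8 and S100A9, the subunits of calprotectin, were lower as well, at -2.28 and -3.99. The list median was -0.97.

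Granule genes, the stores of antimicrobial proteins in neutrophils and their precursors, differed in most members and in both directions, 6 higher and 7 lower of 19. The serine protease family genes of azurophil granules stood together, with AZU1 at 15.42 in THP1 and 12.17 in NOMO1, PRTN3 at 14.65 in THP1 and 11.81 in NOMO1, ELANE higher by 2.23, and CTSG at 15.43 in THP1 and 14.02 in NOMO1. CFD, another serine protease of the complement pathway, was higher by 2.30. MS4A3, a marker of granulocyte-monocyte progenitors, had 13.90 and 14.03 in THP1, against 8.57 and 8.21 in NOMO1 (5.57 ± 0.29, adjusted p = 2.5e-11). MPO, the peroxidase packed into the same granules as those proteases, was the reverse, with 6.84 and 7.03 in THP1, against 13.73 and 13.48 in NOMO1 (-6.67 ± 0.26, adjusted p = 6.1e-13). DEFA4, a defensin (-6.23 ± 0.44), MGAM, a maltase of late granules (-6.20 ± 0.25), and the formyl peptide receptors FPR1 (-5.32) and FPR2 (-4.91) were lower with it. The granule list thus did not move as a block: serine protease family genes were higher in THP1, and MPO and the defensin lower. AZU1, PRTN3, ELANE and CFD follow each other among the measured genes of chromosome 19. Among 13 basophil, mast cell and eosinophil markers 6 were 2-fold lower and 0 higher. Besides CLC and PRG2 these were EPX, the eosinophil peroxidase gene (-4.85), the tryptase genes TPSAB1 (-3.32 ± 0.47) and TPSB2 (-2.22), which share sequence, and HRH4 (-1.02). CPA3 and FCER1A, defining mast cell and basophil genes, were at or near the lowest values of their probe sets in both lines (2.13 and 2.37).

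Cytokine and chemokine genes were the list with the largest share of calls in the lower direction among the 31 lists. Of 40 measured members 28 were 2-fold lower in THP1 and 3 higher, against the background of 15.9% and 15.4%, and the median was -3.17, where that of all genes was 0.00. CCL2, which attracts monocytes, had 3.40 and 3.36 in THP1, against 11.15 and 11.44 in NOMO1 (-7.91 ± 0.43, adjusted p = 4.24e-11). CXCL10, an interferon-induced T cell attractant, was at the floor in both THP1 arrays, against 9.03 and 9.18 in NOMO1 (-6.97 ± 0.10). CCR7, the receptor that guides cells to lymph nodes, had 2.29 and 2.15 in THP1, against 9.98 and 9.82 in NOMO1 (-7.68 ± 0.42). Inflammatory mediators were lower as a row, with CXCL8 at 6.35 in THP1 and 12.26 in NOMO1, TNF at 4.11 in THP1 and 9.60 in NOMO1, and IL1B at 5.82 in THP1 and 10.16 in NOMO1. The 3 exceptions were CCR2, IL18 (1.18) and IL23A (1.02). Without the second THP1 array only 1 member was called higher.

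Innate receptors, which start such responses, differed in both directions. Of 43 such genes 21 were 2-fold lower and 6 higher (median -0.97). FCAR, the receptor for IgA, had 2.36 and 2.36 in THP1, against 10.25 and 9.95 in NOMO1 (-7.74 ± 0.21). CLEC5A, a lectin receptor of myeloid cells, had 3.41 and 2.94 in THP1, against 11.84 and 12.03 in NOMO1 (-8.76 ± 0.23), and the complement receptor CR1 averaged 2.27 in THP1 and 9.32 in NOMO1. Largest among the 6 higher was TREM2, a lipid-sensing receptor of tissue macrophages and microglia, with 12.39 and 12.48 in THP1, against 4.47 and 4.48 in NOMO1 (7.96 ± 0.38, adjusted p = 7.27e-12). Of the Toll-like receptors, TLR8 and TLR1 were lower, TLR4 was called at -0.80, short of 2-fold, and TLR2 averaged 11.26 in THP1 and 10.99 in NOMO1. LY96, the partner that TLR4 needs for endotoxin, averaged 4.87 in THP1 and 8.96 in NOMO1. CD14 and LY96, which act in the same receptor complex, therefore lay in opposite directions.

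Of 38 growth factor and cytokine receptor genes 4 were higher and 13 lower. Both chains of the interleukin-18 receptor were dark in THP1: IL18R1 was at the floor in both arrays, against 10.04 and 10.19 in NOMO1 (-7.99 ± 0.20), and IL18RAP had 2.98 and 2.98 in THP1, against 11.67 and 12.13 in NOMO1 (-8.92 ± 0.19). IL2RG, the chain shared by several interleukin receptors, differed by -6.71 ± 0.30, and IGF1R, the insulin-like growth factor receptor, by -5.34 ± 0.19, with 4 of 4 probe sets in that direction but ranging from -5.38 to -0.09. The ligand gene IL18 was, by contrast, a little higher in THP1 than in NOMO1, as given above.

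Antigen presentation by MHC class II was divided by gene. HLA-DRA, the alpha chain of the DR molecule, had 4.70 and 5.05 in THP1, against 13.87 and 14.07 in NOMO1 (-9.10 ± 0.54, adjusted p = 1.44e-10). HLA-DPA1 had 3.31 and 3.31 in THP1, against 11.41 and 11.38 in NOMO1 (-8.09 ± 0.44), and HLA-DPB1 had 4.83 and 4.39 in THP1, against 12.07 and 12.12 in NOMO1 (-7.49 ± 0.56). The peptide loader HLA-DMB (-5.74), the chaperone CD74 (-3.49) and CIITA, the activator of the class II genes (2.96 in THP1 and 4.94 in NOMO1), were lower as well. In all, 10 of 19 members were 2-fold lower and 5 higher. Those higher were HLA-DQB1 (2.67), the costimulator CD40 (2.71), the lipid-presenting CD1D (1.75) and the DNA-binding factors RFX5 (1.17) and RFXANK (1.02). HLA-DRB1 averaged 11.17 in THP1 and 11.35 in NOMO1 and did not pass. HLA-DRB4 (-8.24 ± 0.46) is carried by some haplotypes only, and the DRB genes, like other HLA genes, are close copies that vary between people, so probe set signals of these genes are uncertain. Of 20 class I and processing genes 1 was higher and 5 lower, or 30%, near the share of all genes, with a median of -0.00. HLA-E, a ligand of natural killer cell receptors, had 11.82 and 11.95 in THP1, against 14.13 and 14.32 in NOMO1 (-2.34 ± 0.09), the peptide trimming gene ERAP2 differed by -3.28 ± 0.23 and the peptide transporter gene TAP2 by 1.46 ± 0.12. HLA-F (-1.36 ± 0.12) did not pass once probe sets prone to cross-hybridise were left out (-0.33, adjusted p = 0.224), and then 2 members were called lower.

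Of 35 listed surface molecules by which AML cells are recognised, 20 were 2-fold lower in THP1 and 0 higher (median -1.20). The surface molecules CD14 (3.17 ± 0.42) and CD4 (4.70 ± 0.41) were not in this list and were higher in THP1. CD52, the target of alemtuzumab, had 9.66 and 9.75 in THP1, against 13.14 and 13.44 in NOMO1 (-3.58 ± 0.11). CD48, a ligand on leukocytes, differed by -4.94 ± 0.45, though its other probe set gave -0.19, and CD9, a tetraspanin, by -3.44 ± 0.35. The complement shields CD55 (-2.75) and CD59 (-1.91) and the immune ligands CD70 (-1.48) and MICB (-2.32) were lower as well. ANPEP (CD13) averaged 12.38 in THP1 and 11.80 in NOMO1 and was the largest difference of the list in the other direction, at 0.59. Of 34 integrin and adhesion genes 16 were lower and 4 higher. ITGAM, the CD11b chain of the complement receptor, had 9.72 and 9.80 in THP1, against 13.50 and 13.33 in NOMO1 (-3.66 ± 0.47), while ITGB2, its partner chain, averaged 13.32 in THP1 and 13.22 in NOMO1. ICAM3 (-3.60 ± 0.11), ICAM2 (-3.42 ± 0.19) and CD44 (-2.80 ± 0.13, 12 of 12 probe sets in that direction) were lower. CDH2, the neural cadherin, was the large exception, at 8.35 in THP1 and 2.13, the floor, in NOMO1.

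Subunits of the phagocyte oxidase differed by unequal amounts. NCF1, which encodes the cytosolic p47 subunit, had 5.33 and 5.63 in THP1, against 13.43 and 13.42 in NOMO1 (-7.94 ± 0.28, adjusted p = 1.4e-13), with the limit that NCF1 has near-identical pseudogenes. CYBA, the membrane partner of CYBB, averaged 14.61 in THP1 and 14.63 in NOMO1 and did not pass. Of 37 oxidase and lysosome genes as a group, 4 were higher and 5 lower, or 24.3% against the 31.4% of all genes. CTSL, a lysosomal protease, was higher by 2.59 ± 0.12 and CTSD, another, lower by -1.80 ± 0.15. Eicosanoid genes gave 3 higher and 10 lower of 24. PTGS2, the inducible cyclooxygenase, had 2.86 and 3.84 in THP1, against 9.99 and 9.95 in NOMO1 (-6.62 ± 0.34), and HPGD, which degrades prostaglandins, was at the floor in both THP1 arrays, against 9.92 and 9.65 in NOMO1 (-7.65 ± 0.80). Synthesis and breakdown enzymes of the same mediator were therefore both dark in THP1. The prostaglandin receptor gene PTGER2 (-5.81 ± 0.15) and AKR1C3 (-8.00 ± 0.35) followed. AKR1C1, AKR1C2 and AKR1C3, neighbours on chromosome 10 that reduce steroids and prostaglandins, are close in sequence and their signals may mix.

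Stem and progenitor genes gave 4 higher and 8 lower of 23, led by HOPX and SPINK2. ANGPT1, a niche ligand, had 2.14 and 2.18 in THP1, against 9.00 and 9.02 in NOMO1 (-6.85 ± 0.20), and SOCS2, a brake on cytokine signalling, had 5.92 and 6.16 in THP1, against 12.56 and 12.65 in NOMO1 (-6.56 ± 0.24). Genes that RAS and MAPK signalling induces, and regulators of that pathway, gave 0 higher and 16 lower of 37 (1 higher without THP1_DMSO replicate 2 or without NOMO1_DMSO replicate 2). IER3, an early response gene, had 2.77 and 2.77 in THP1, against 8.56 and 8.60 in NOMO1 (-5.81 ± 0.41). The ETS factor genes ETV4 (-3.90 ± 0.32) and ETV5 (-2.09 ± 0.13), the imprinted gene PHLDA2 (-2.06 ± 0.22) and the feedback inhibitor genes SPRED1 (-3.53) and SPRY4 (-3.02) were lower, while the phosphatase gene DUSP6 (-0.90) stayed short of 2-fold. Glycolysis and hypoxia genes gave 3 higher and 16 lower of 41, among them HK3, a hexokinase of myeloid cells (-5.57 ± 0.26), SLC2A3, a glucose transporter (-4.24 ± 0.30), and PFKFB3 on chromosome 10, which raises glycolytic flux (-2.83 ± 0.18). EPAS1, the hypoxia-inducible factor HIF-2 alpha, went the other way (3.11 ± 0.31).

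FAS, the death receptor gene, lies on chromosome 10 and had 2.91 and 2.90 in THP1, against 9.61 and 9.61 in NOMO1 (-6.71 ± 0.23, 4 of 4 probe sets in that direction). Of 35 CDK inhibitor, p53 pathway and suppressor genes 3 were higher (5 with the mean of probe sets, and 5 without those prone to cross-hybridise) and 10 lower. CDKN1A, the cell cycle inhibitor p21, had 8.80 and 8.96 in THP1, against 11.08 and 10.96 in NOMO1 (-2.14 ± 0.26), and the TRAIL receptor gene TNFRSF10B differed by -2.38 ± 0.08. WT1, a zinc finger gene overexpressed in AML, was higher (1.72 ± 0.13). Of 32 BCL2 family and death genes 3 were higher and 5 lower, which at 25% is under the share over all genes, and BCL2A1, FAS, TNFSF10 (-2.88 ± 0.30) and CASP6 (-2.15 ± 0.10) had the largest differences. The redox, detoxification and transport list gave 9 higher and 17 lower of 51, and 9 lower of 40 without probe sets prone to cross-hybridise. ALDH2, the mitochondrial aldehyde dehydrogenase, had 13.52 and 13.69 in THP1, against 8.04 and 6.95 in NOMO1 (6.11 ± 0.36), the largest difference upwards in that list.

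Growth genes were called in shares under that of all genes. Of 47 S-phase genes 3 were higher and 1 lower at 2-fold, or 8.51%, of 50 G2 and mitosis genes 5 and 3, or 16%, and of 39 MYC target and ribosome biogenesis genes 3 and 3, or 15.4%, where all genes gave 31.4%. Without NOMO1_DMSO replicate 2 only 1 S-phase gene was higher. RFC2, a clamp loader subunit on chromosome 7, was the S-phase gene lower in THP1 (-1.89 ± 0.06), and EXO1 (1.51 ± 0.12), CCNE2 (1.05 ± 0.14) and UNG (1.00 ± 0.10) were higher. In mitosis CDC20, the activator of the anaphase-promoting complex, had 14.83 and 14.63 in THP1, against 12.77 and 12.97 in NOMO1 (1.86 ± 0.09), CENPF differed by 1.87 ± 0.07, and AURKB (-1.96 ± 0.10) and CDC25B (-2.05 ± 0.11) were lower. The other probe sets of AURKB and CCNE2 gave smaller differences, -0.39 and 0.47. EIF5A, a translation factor (-1.96 ± 0.07), RRP12 on chromosome 10 (-1.77 ± 0.10), HEATR1 (1.15 ± 0.08) and POLR1C (1.14 ± 0.07) led the last list. The 22 measured genes of DNA methylation gave 2 higher and 3 lower, among them ZBTB33, which binds methylated DNA (1.16 ± 0.09), and the cytidine deaminase genes APOBEC3G (-1.25 ± 0.24) and APOBEC3B (-1.05 ± 0.14), which are close in sequence. DNMT1, the target of the drug, had 13.31 and 13.25 in THP1, against 13.01 and 13.01 in NOMO1 (0.27 ± 0.07, adjusted p = 0.00237). UHRF2, a relative of the DNMT1 partner UHRF1, had 13.08 and 13.07 in THP1, against 10.33 and 10.38 in NOMO1 (2.72 ± 0.07, adjusted p = 1.16e-15), while UHRF1 averaged 13.28 in THP1 and 13.23 in NOMO1. Cholesterol and lipid synthesis genes gave 6 higher and 2 lower of 32 (median 0.46). The cholesterol exporter gene ABCA1 (3.95 ± 0.45), INSIG1 (1.52 ± 0.28) and MSMO1 (1.42 ± 0.14) were higher, and ELOVL6, a fatty acid elongase, had 2.13 and 2.16 in THP1, against 10.41 and 10.05 in NOMO1 (-8.09 ± 0.23), though its probe sets ranged from -8.09 to -0.52.

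Genes of other lineages differed in both directions. Of 26 epithelial and mesenchymal genes 7 were higher and 9 lower. CNN3, a calponin of smooth muscle and fibroblasts, had 9.74 and 10.04 in THP1, against 2.49 and 2.14 in NOMO1 (7.58 ± 0.15), while KRT18, a keratin, had 3.17 and 3.17 in THP1, against 10.16 and 10.51 in NOMO1 (-7.17 ± 0.39), and CLDN1, a tight junction protein, differed by -6.87 ± 0.11. Of 12 erythroid and megakaryocyte genes 3 were higher and 6 lower, with MYL9, a myosin light chain of platelets, at 8.99 and 9.00 in THP1 and at the floor in NOMO1 (6.87 ± 0.16), RAB27B at -6.28 ± 0.23 and ERMAP on chromosome 1 at 3.25 ± 0.17. Of 13 lymphocyte genes 4 were higher (1 of 8 with a filter on dim genes) and 5 lower, among them NKG7 (-1.90 ± 0.40) and CD24 (-1.69 ± 0.45). CD24 did not pass once probe sets prone to cross-hybridise were left out (-1.16, adjusted p = 0.0744). Of 11 cancer-testis and germ-cell genes 4 were higher and 2 lower. PRAME had 10.76 and 10.97 in THP1, against 2.34 and 2.34 in NOMO1 (8.53 ± 0.13), MAGEB2 had 10.93 and 11.13 in THP1, against 2.97 and 3.19 in NOMO1 (7.95 ± 0.21), and TEX15 was higher by 5.97 ± 0.24, while the piRNA-pathway gene TDRD9 had 2.22 and 2.13 in THP1, against 8.81 and 8.60 in NOMO1 (-6.53 ± 0.49). PRAME, MAGEB2 and TEX15 were thus dark in NOMO1 and TDRD9 was dark in THP1.

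Interferon-stimulated genes leaned the other way from the cytokines. Of 54 measured members 16 were 2-fold higher in THP1 and 6 lower, and the median was 0.30. HERC5, the ligase that attaches ISG15, averaged 8.17 in THP1 and 2.96 in NOMO1 (difference 5.21), IFIT3 averaged 7.88 in THP1 and 4.74 in NOMO1, and IFI6 had 9.24 and 9.65 in THP1, against 6.88 and 7.41 in NOMO1 (2.30 ± 0.31). TRIM22, a restriction factor, had 4.54 and 5.63 in THP1, against 9.29 and 9.31 in NOMO1 (-4.21 ± 0.30), and GBP2, a guanylate-binding protein, differed by -3.62 ± 0.31. CXCL10, which is also induced by interferon, was lower as described. The list was therefore not uniform, with the antiviral genes MX1 (2.99), RSAD2 (2.11), OAS1 (1.42), OAS2 (1.22) and OAS3 (1.54) on the higher side and TRIM22, GBP2, UBE2L6 (-2.14 ± 0.19), the RNA sensor RIGI (-1.48), BST2 (-1.15) and IFIT5 (-1.13) on the lower.

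**Figure D2:**
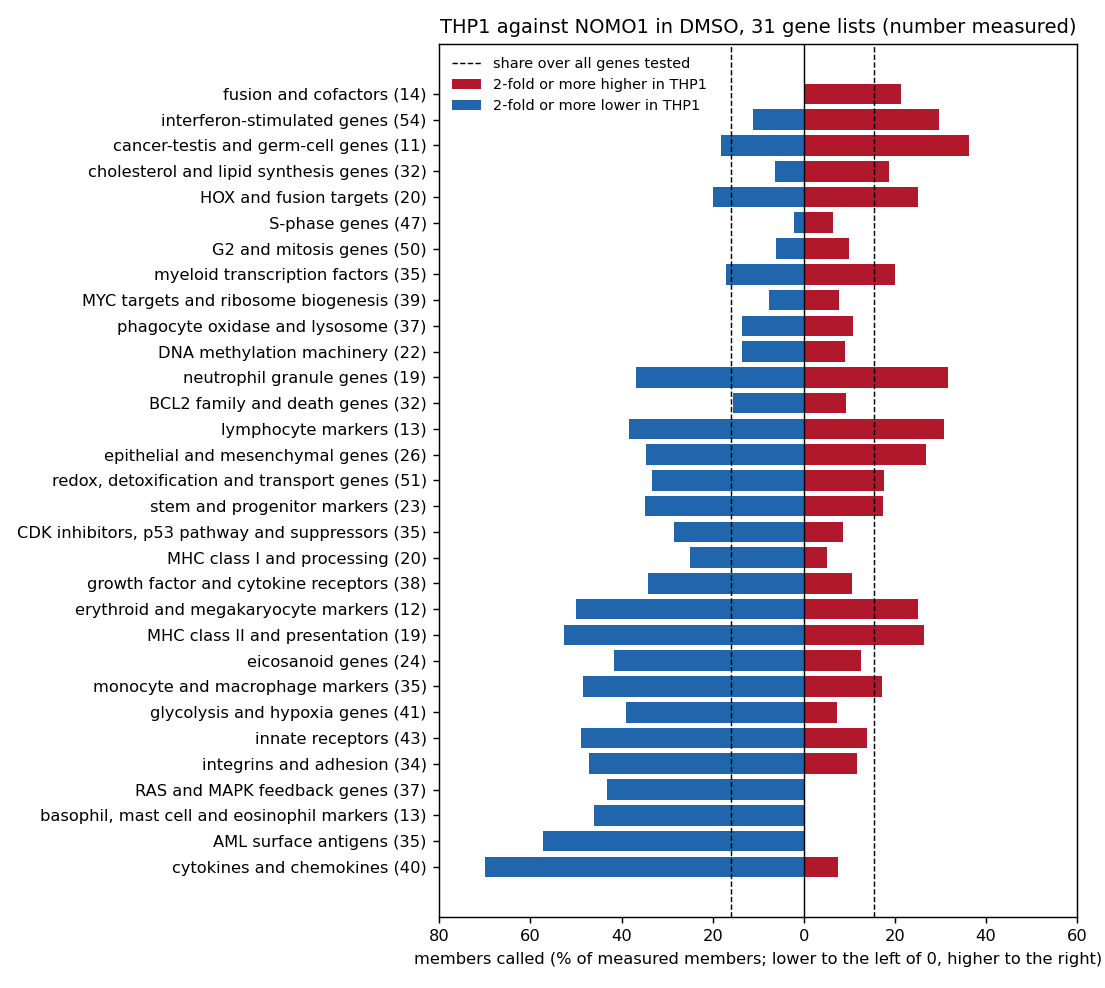
Share of the measured members of each of 31 gene lists (y axis, number measured in brackets) called 2-fold or more higher in THP1 (right of 0) or lower (left of 0), in percent of members, with dashed lines at the shares over all genes tested, 15.4% and 15.9%. Cytokines and chemokines reach farthest to the left (28 of 40), AML surface antigens and RAS and MAPK feedback genes have no bar to the right, and S-phase genes stay inside both dashed lines.

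Calls were unevenly placed on the chromosomes. On chromosome 10, 47% of 455 genes were 2-fold lower in THP1 and 3.96% higher, against 15.9% and 15.4% over all genes, and the median difference was -0.95. Set against the mean of the 5 other lines, the chromosome 10 median was -0.96 in THP1 and -0.04 in NOMO1, so the offset lay with THP1. FAS, PFKFB3, HHEX, RRP12, ANKRD22 and the AKR1C genes belong to that chromosome. On chromosome 1, 28.3% of 1166 genes were higher and 7.89% lower (median 0.46), with 0.33 for THP1 against the 5 other lines and -0.09 for NOMO1. Chromosome 9 gave 27.4% higher and 10.1% lower, and chromosome 17 gave 5.98% higher and 25.1% lower. Gene copy number was not measured, and its part in these differences was not tested.

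**Figure D3:**
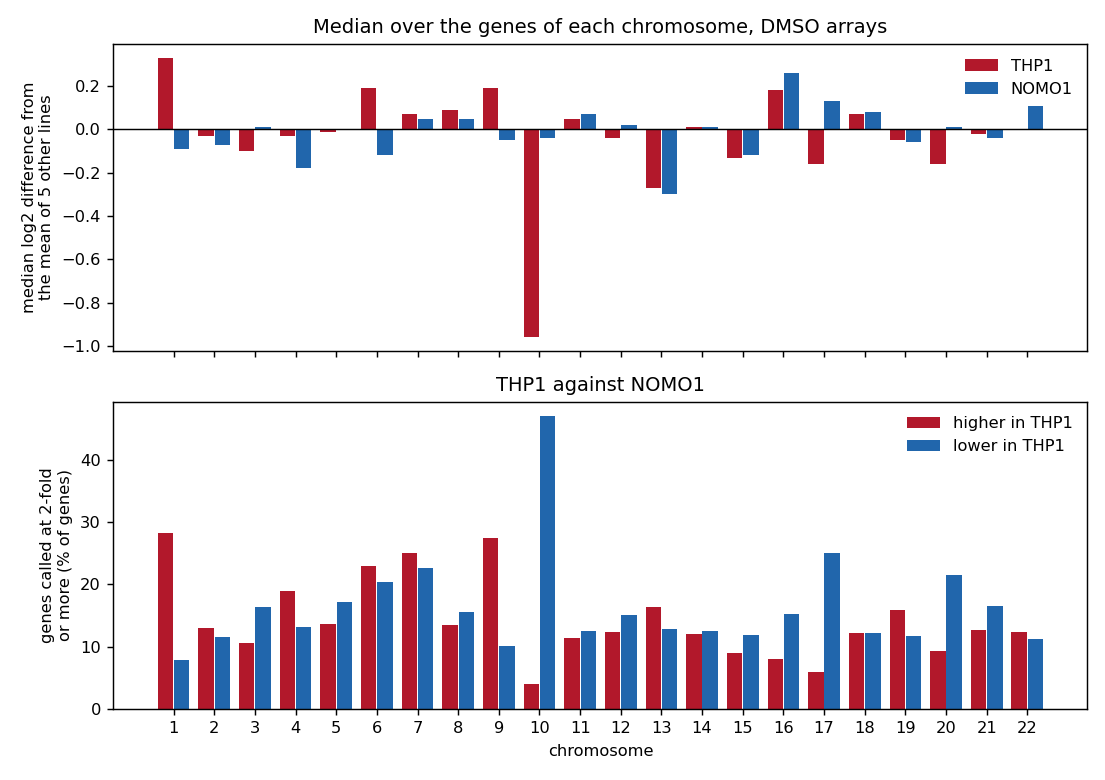
The upper panel gives the median over each chromosome's genes (x axis, chromosomes 1 to 22) of the log2 difference between THP1, or NOMO1, and the mean of the 5 other lines in DMSO. The lower panel gives the percent of genes called 2-fold or more higher or lower in THP1 than in NOMO1, and chromosome 10 stands out in both, at -0.96 for THP1 and 47% lower.

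Runs of neighbouring genes called in the same direction were also listed, which was decided after values were seen and is a description. Neighbours here follow each other among the measured genes, so unmeasured genes may lie between them. The longest run was of 17 neighbours on chromosome 1, TRIT1 to SCMH1, all higher in THP1 by 1.24 to 5.77 (median 3.28). THP1 was above every other line in 17 of the 17, by a median of 4.02 over the mean of the 5 others, whereas NOMO1 differed from that mean by 0.23. ZNF684 (5.69), COL9A2 (5.77) and ZFP69B (5.43) lie in it, and so does MYCL, a relative of MYC, with 8.17 in THP1 and 6.80 in NOMO1. A run of 16 on chromosome 9, PAX5 to FAM201A, was higher in THP1 by 1.04 to 7.12, and there NOMO1 was below all 5 other lines in 12 genes. A run of 11 on the same chromosome, PLPP6 to UHRF2, held the kinase gene JAK2, with 9.79 in THP1 and 7.81 in NOMO1, and NOMO1 was below all 5 others in 8 of them. On chromosome 7, 15 neighbours from NCF1 to STYXL1 were lower in THP1 by -7.94 to -1.24, and NOMO1 was above all 5 other lines in 10 of these. That run holds pseudogenes and close copies (NCF1, GTF2IRD2 and the PMS2 and NSUN5 pseudogenes), whose probe sets may share signal. In THP1 the long run was thus high against all lines, while in the others NOMO1 was the line that stood apart more often. In all, 119 runs of at least 4 genes were listed. Some shorter ones held clusters of related genes, such as 8 neighbours on chromosome 4 with the CXC chemokine genes (median -4.26), 8 on chromosome 12 with lectin receptor genes (median -2.72) and 6 metallothionein genes on chromosome 16 (median -2.79), which are close in sequence. Others joined genes of no common family, such as 9 on chromosome 10 from LCOR to MMS19 (median -1.36) and 7 on chromosome 1 from DUSP5P1 to URB2 (median 1.36).

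**Figure D4:**
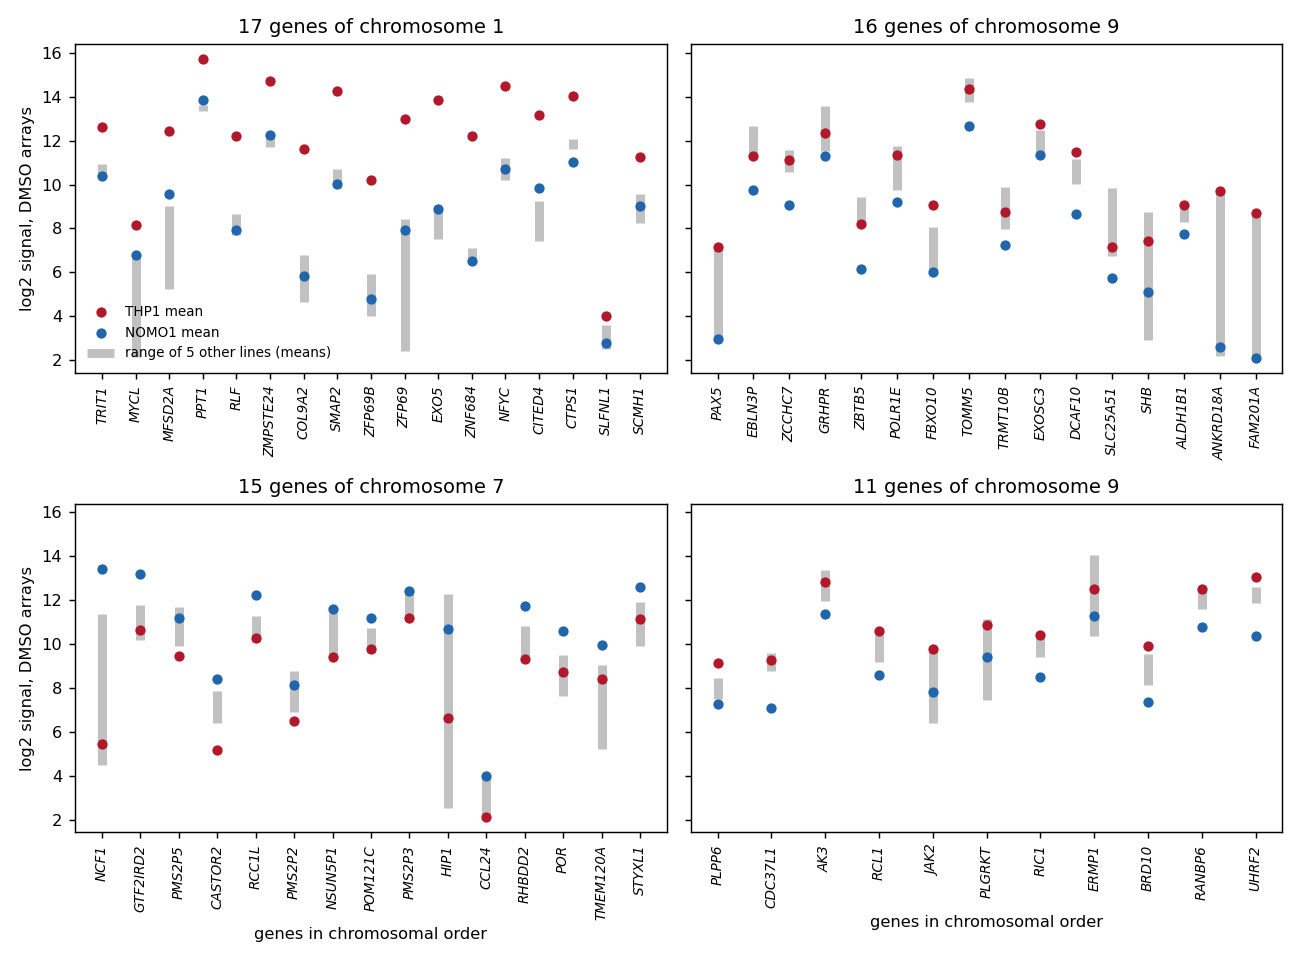
DMSO means (log2 signal, y axis) of THP1 and NOMO1 and the range of the 5 other lines' means (grey bars) for the genes of the 4 longest runs, in chromosomal order (x axis). In the 17 genes of chromosome 1 every THP1 point lies above the grey bar, and in the chromosome 9 runs most NOMO1 points lie below it.

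Some genes were dark in 1 line and bright in all others. With a mean under 4 in that line and above the median of all values in the 6 others, a limit chosen after values were seen, THP1 had 4 such genes and NOMO1 had 7. In THP1 these were KDM6A, a histone demethylase gene (2.55 in THP1, 10.18 in NOMO1 and at least 8.65 elsewhere), FUNDC1, a mitophagy receptor gene (2.43 in THP1 and 11.26 in NOMO1), EMD, the emerin gene of the nuclear envelope (3.11 in THP1 and 10.04 in NOMO1), and RAP2A, a small GTPase gene (2.39 in THP1 and 10.64 in NOMO1). KDM6A, FUNDC1 and EMD lie on the X chromosome. In NOMO1 they were CAAP1 (11.81 in THP1 and 2.48 in NOMO1), PLAA (10.56 in THP1 and 2.16 in NOMO1), IFT74 (9.41 in THP1 and 2.13 in NOMO1), FOCAD (10.24 in THP1 and 2.13 in NOMO1) and KLF9 (9.53 in THP1 and 3.76 in NOMO1) on chromosome 9, LIX1L on chromosome 1 and LRRC34 on chromosome 3. Where a gene of these 11 had more than 1 probe set, all its probe sets had the same sign. EMD and FUNDC1 had only 1 probe set each. Whether these genes are deleted, silenced or differ at the probe sites was not tested.

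The lines were also compared in the arrays of cells given GSK3484862, whose signals are not part of the DMSO difference, although all 28 arrays entered the choice of probe sets and the pooled spread. There 8163 genes were called (69.9%) and 3810 at 2-fold or more (32.6%). Of the 3664 genes at 2-fold in DMSO, 3644 had the same sign in the treated arrays and 3219 were called there at 2-fold with that sign, which is 87.9% of the DMSO genes and 84.5% of the treated ones. Only 5 were called with the opposite sign. SHOX2 differed by 10.25 with GSK3484862 and by 10.13 with DMSO, HOPX by -10.46 and -10.69, MEIS1 by -7.89 and -8.16, and TREM2, CCL2 and HLA-DRA likewise kept their direction. Cytokine genes gave 2 higher and 27 lower with the drug, and the listed AML surface antigens 0 higher and 23 lower.

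A test of the response itself, THP1 response minus NOMO1 response, where a response is GSK3484862 minus DMSO within a line, was passed by 408 genes (3.49%), 222 of them positive (1.9%) and 186 negative (1.59%), and 242 differed by 2-fold or more (2.07%). Within the lines 1599 genes responded in THP1 (13.7%) and 1373 in NOMO1 (11.8%). Among the genes that were 2-fold apart in DMSO 258 also passed, and the response ran against the DMSO difference in 138 and along it in 120. NAV3, a microtubule-binding neuron navigator, had 9.29 and 9.19 in treated and 8.35 and 7.91 in DMSO-grown THP1 cells, and 9.98 and 10.18 in treated and 3.28 and 3.49 in DMSO-grown NOMO1 cells. The difference between lines was -0.84 with GSK3484862 and 4.74 with DMSO. MAGEB2 had 7.90 and 7.29 in treated NOMO1 cells, against 2.97 and 3.19 with DMSO, and OLFML3, a secreted olfactomedin-domain protein, had 7.83 and 8.29 in treated NOMO1 cells, against 2.87 and 3.54 with DMSO. In both genes THP1 was already bright with DMSO and rose less, by 0.98 and 1.33. Gaps also widened: TKTL1, a transketolase-like cancer-testis gene, had 9.14 and 8.90 in treated NOMO1 cells, against 4.23 and 3.76 with DMSO, and was at the floor in all 4 THP1 arrays.

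Interferon-stimulated genes held 17 of the genes whose response differed, 31.5% of the 54 measured against 3.49% of all genes, and all 17 were positive. Their median response was 0.73 in THP1 and 0.02 in NOMO1. OAS1, which senses double-stranded RNA, rose by 3.74 in THP1 and changed by -0.01 in NOMO1 (difference 3.76, adjusted p = 1.23e-05), and IFI44L, at the floor in both lines with DMSO, rose by 4.54 in THP1 and changed by 0.00 in NOMO1. TRIM22, lower in THP1 with DMSO, rose by 3.31 in THP1, with a response of 0.69 in NOMO1 that did not pass (difference 2.62, adjusted p = 0.00143). The gap thus grew for OAS1, and shrank for TRIM22 and for GBP2, which differed by -1.11 with GSK3484862 and by -3.62 with DMSO. With the drug 23 members were 2-fold higher in THP1 and 4 lower. The response and the DMSO difference use the same DMSO arrays.

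**Figure D5:**
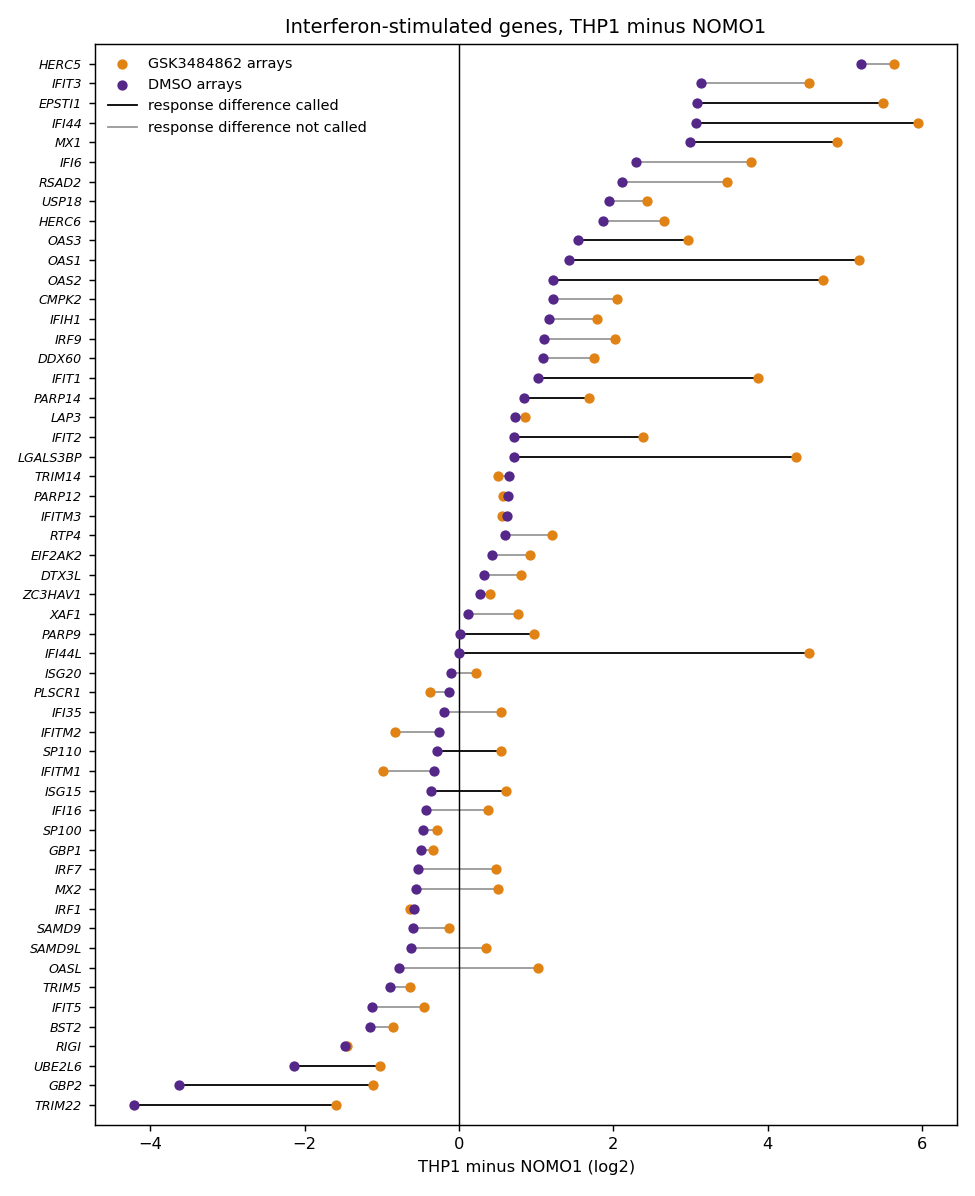
THP1 minus NOMO1 (log2, x axis) for the 54 measured interferon-stimulated genes, in GSK3484862 arrays (orange) and DMSO arrays (purple), with a black line where the response difference was called. The 17 black lines all run to the right from the DMSO point, for example in OAS1, IFI44L and TRIM22.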

How the data were processed

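The authors deposited 1 table of log2 probe set signals with 1 column per array. How background was corrected and probes were summarised and normalized is not given in the sources used here. The tool limma is named, without a version, per the submitters' processing notes. The log2 values were used as deposited, since array medians lay between 8.33 and 8.51. Of 27306 probe sets, 22580 had 1 gene symbol in the platform annotation, which can be old, 1098 had several and 3628 had none listed. Probe sets with several or none were left out, and each of the 11676 genes kept its probe set with the highest mean.

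The table was fitted with limma 3.58.1 in R 4.3.3 (lmFit, eBayes) as 14 groups, line by treatment, over 28 arrays, so the spread between duplicates came from all groups (14 residual and 2.28 prior degrees of freedom). Contrasts were THP1 minus NOMO1 in DMSO, the same in GSK3484862, and THP1 response minus NOMO1 response. P-values are two-sided and adjusted by Benjamini-Hochberg over all genes. With 2 arrays a group, their number limits the precision. Scan dates and batches were not used, and a batch that held 1 line cannot be told apart from that line. Gene order came from RefSeq start positions (GRCh38.p14), over measured genes only.

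The comparison, the 31 gene lists and the naming rule were chosen with earlier results of these data known. The rule named the 15 largest 2-fold differences in each direction among genes whose higher line lay above the median of all values. These genes also had no overlap between the arrays of the lines and no array at the floor. The rule also named 4 each without overlap and with both arrays of a line at the floor, and up to 4 per list. It added KMT2A, MLLT3, MEIS1, DNMT1, MYC, CD14 and CSF1R, and 8 narrowed and 4 widened differences. Other list members, the runs and the genes dark in 1 line were named after their values were seen. XIST, genes of the Y chromosome and 1 gene that the rule named were fitted and are not reported here.

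Alternatives were quantile normalization, centring on the median, a filter on dim genes, the mean of probe sets, leaving out cross-hybridising probe sets, eBayes trend and robust options, weights per array, a block on the replicate number, fewer arrays in the fit, an adjusted p under 0.01, limma's treat test, and leaving out each array.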

Additional observations from a re-analysis of the deposited data

Results flagged for a closer look

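The response to GSK3484862 differed between the lines by a test of the difference itself (THP1 response minus NOMO1 response, limma, adjusted p under 0.05) for 408 genes, and 11 of them are given here from the largest that ran against or along the difference seen in DMSO. The response ran against the DMSO difference, by at least 1, for 94 genes in all. NAV3 (-5.59 ± 0.29, adjusted p = 3.72e-09), PEX5L (-3.66 ± 0.49), MAGEB2 (-3.54 ± 0.29) and OLFML3 (-3.52 ± 0.38) were higher in THP1 with DMSO, and their rise in NOMO1 exceeded the THP1 response. PEX5L, a peroxin-related gene of brain, had 1 of 2 probe sets with the sign of its DMSO difference. SELENOP, the selenium carrier (4.15 ± 0.62), FJX1 (3.40 ± 0.56) and ADAM28 (3.33 ± 0.81) were lower in THP1 with DMSO. With GSK3484862 the difference between lines had the opposite sign, and was called, in NAV3 (-0.84), PEX5L (adjusted p = 0.0168) and ADAM28 (1.49, adjusted p = 0.0287). In NOMO1 SELENOP and FJX1 fell with the drug, by -2.86 and -3.63, while their THP1 responses of 1.30 and -0.23 did not pass. The DMSO difference of ADAM28, -1.83, was -0.96 (adjusted p = 0.188) without THP1_DMSO replicate 1 and had an adjusted p of 0.0907 with the 4 DMSO arrays alone. Its response difference had an adjusted p of 0.0288 that passed the threshold neither without THP1_DMSO replicate 1 (2.45, adjusted p = 0.159) nor without either NOMO1_DMSO array (3.45 and 3.20), either THP1_GSK3484862 array (3.50 and 3.15) or NOMO1_GSK3484862 replicate 1 (2.58).

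The response ran along the DMSO difference, by at least 1, for 83 genes in all. TKTL1 (-5.03 ± 0.46), SYNE2, a nuclear envelope spectrin-repeat protein (-4.19 ± 0.65), ADGRG3, an adhesion receptor of granulocytes (-3.92 ± 0.29), and TSPAN16-AS1 (-3.90 ± 0.37) rose in NOMO1 and were at or near the bottom of their range in all 4 THP1 arrays. SYNE2 differed in DMSO by -1.53, but its NOMO1 arrays read 2.77 and 4.55, and the difference was -2.42 without NOMO1_DMSO replicate 1 and -0.64 (adjusted p = 0.204) without replicate 2. The causes of these differences were not tested.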

How the results depend on the processing

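With 2 arrays a group the counts rest on a spread pooled over 14 groups. The DMSO count of 8072 ran from 6973 with a filter on dim genes (9394 tested) to 8131 with the trend option, and leaving out 1 array gave 7296 to 7582. The 2-fold count of 3664 was 2427 by limma's treat test, which asks for more than 2-fold, and 3575 to 3806 with 1 array left out. The GSK3484862 count of 8163 was 7391 to 7520 with 1 array left out. The response count of 408 was 202 with the 8 THP1 and NOMO1 arrays alone, 191 at an adjusted p under 0.01, and 283 to 412 with 1 array left out. The replicate numbers did not pair the arrays (same-numbered deviations correlated at -0.027 between the lines in DMSO, 0.086 between treatments in THP1, 0.309 in NOMO1, and from -0.158 to 0.391 over 91 pairs of groups), and the replicate block gave 8104, 3664, 8188 and 419. Of 2501 values of named genes under an alternative, 2493 kept direction and side of the threshold, 0 reversed and 8 lost the call, in HLA-F, CD24, ADAM28 and SYNE2. Of 992 list counts 12 moved by over 1.5 times, most of them counts under 5, and redox genes lower in THP1 numbered 9 without cross-hybridising probe sets, against 17. Signals near the floor limit the size, not the sign, of the largest differences. Probe sets of a gene could also differ in size where no range is given above. Examples are ETV5 (-2.09 to -0.33), CASP6 (-2.15 to -0.63), FCN1 (-9.34 to -1.92) and EPB41L2 (1.19 to 8.61).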
